A study of Solanum tuberosum with 36 samples.

Results

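The potato genes PGSC0003DMG400015019, which encodes a MAPKKK protein kinase, and PGSC0003DMG400001621, which encodes a phospholipase C (PLC), are 2 of the 25289 genes measured in each of the 18 tables of the series. Their names are those given by the authors, who chose both genes on the Gwiazda and Oberon libraries. They asked for no difference between these cultivars on day 0, a difference under drought, and a change in Gwiazda under drought. The paper words the drought steps as day 6 or day 10 in one passage and as both days in others. Later rounds kept genes with the largest differences and those whose RT-PCR profile matched the sequencing. The values of Gwiazda and Oberon are therefore given here as a description, without a test, and the tests were made in Tajfun and Owacja, whose libraries did not enter the selection of these genes.

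Leaf RNA was sequenced from 4 potato cultivars (Solanum tuberosum) on 3 days. Gwiazda and Tajfun are tolerant of drought, and Oberon and Owacja are sensitive to it, with 3 samples listed for each of the 12 groups. Day 0 was the control, when all plants were still watered. Days 6 and 10 were counted from the moment watering was stopped, in plants that had already begun to form tubers. No group of watered plants on days 6 or 10 is among the samples. A rise or response under drought means a change from day 0 here, in which drought and plant age cannot be told apart. Each drought-tolerant cultivar was compared with the drought-sensitive cultivar related to it by ancestry, Gwiazda with Oberon and Tajfun with Owacja, so cultivar and drought tolerance cannot be told apart within a pair.

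A MAPKKK is the first kinase of a mitogen-activated protein kinase cascade: it phosphorylates a MAPKK, which in turn phosphorylates a MAPK, and such cascades carry stress and hormone signals in plants, including that of abscisic acid, the hormone that closes stomata under drought. Phospholipases C cleave membrane phosphoinositides into a soluble inositol phosphate and diacylglycerol, and enzymes of this class take part in plant responses to water deficit and salt. The Arabidopsis homologues given for the potato genes are AT5G55090, known as MAPKKK15, and AT4G38690, which belongs to the PLC-like phosphodiesterases. The paper reports raised expression of AT5G55090 in an Arabidopsis insertion line, and a better drought tolerance of this line than of wild-type plants.

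The oligonucleotides below are the RT-PCR primers that the authors designed for both genes. They are shown because they mark the part of each transcript that was amplified, and no sequence was searched with them here. The primers of MAPKKK and of PLC are written from 5′ to 3′ in lower case.
MAPKKK forward: gccaattggagggacaatgg
MAPKKK reverse: gcctcggaaaattgagactg
PLC forward: cctattccagttctgcttcaag
PLC reverse: gtcaaacttctcgaacaatcactca

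The deposited values are group means of normalized reads, but each group stands in 3 tables with different normalizations, so the reads of the single libraries could be solved from its 3 means. In every group all 25289 genes came out as whole reads within 0.001 of a read. The solution gave 35 libraries of 34298072 to 41041276 reads, 3 for each group except Oberon on day 10, which held 2, although 3 samples are listed for it. These totals are above the numbers of mapped reads that the authors list for the libraries. A recovered read therefore need not be 1 mapped read, and the reason was not tested. Reads were counted in pairs, so most values are even, and the libraries of a group carry no replicate number. Below, a normalized read count is that of 1 recovered library brought to a scale common to all 35 libraries, and n is the number of libraries. The authors' means of both genes in a group differed by up to 1.16 times between its 3 tables, so ratios of these means were taken within 1 table. The paper states 3 biological replicates, with leaves taken from 3 different plants of a cultivar at each time point. The labels do not say how far apart these plants were grown, so p-values measure the spread between these libraries.

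**Figure D1:**
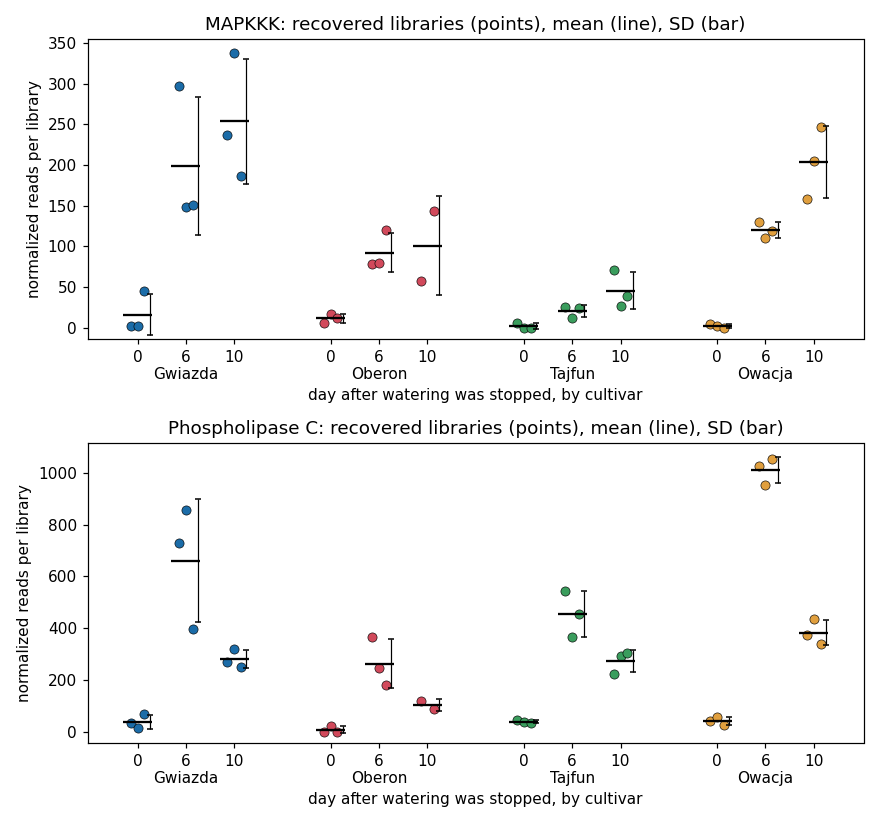
Normalized reads of MAPKKK (top) and phospholipase C (bottom) on the y axes in each of the 35 recovered libraries, by cultivar and day. Points are libraries, lines are group means and bars are SDs. Both genes were low on day 0, MAPKKK was highest in Gwiazda on day 10 with a mean of 254 and phospholipase C was highest in Owacja on day 6 with a mean of 1010.1.

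Before drought, MAPKKK was close to undetected in Tajfun and Owacja. The Tajfun libraries of day 0 held 6.00, 0 and 0 normalized reads of MAPKKK, and the Owacja libraries 4.25, 2.39 and 0. Each of these groups rests on 3 read pairs in all, a library at 0 allows up to 3 read pairs, and no difference between them was detectable at this depth (ratio of Tajfun to Owacja 0.924, exact 95% counting interval 0.124 to 6.90). PLC was already expressed in watered leaves of both cultivars. It had 48.0, 40.2 and 34.2 normalized reads in Tajfun and 44.6, 57.4 and 27.5 in Owacja, and the libraries of both cultivars overlapped. With limma over the 18 libraries of Tajfun and Owacja, the log2 difference of Tajfun from Owacja on day 0 was -0.05 for PLC (95% interval -0.96 to 0.87, adjusted p = 0.972) and -0.72 for MAPKKK (-3.78 to 2.34, adjusted p = 0.818).

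Both genes rose under drought in both of these cultivars. In Tajfun, MAPKKK reached 25.7, 11.9 and 24.96 normalized reads on day 6 and 70.6, 27.4 and 39.1 on day 10. All 6 drought libraries of Tajfun lay above all 3 of day 0, although the margin between the lowest library of day 6 and the highest of day 0 was small. In Owacja, MAPKKK reached 130.3, 110.2 and 119 normalized reads on day 6 and 158, 205 and 247 on day 10. These 6 libraries were far above those of day 0 and the days 6 and 10 did not overlap.

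The ratio of the authors' group means of MAPKKK to day 0 was 10.8 on day 6 and 23.4 on day 10 in Tajfun, and 56.7 and 94.4 in Owacja. As the day 0 groups hold 3 read pairs each, the counting error of these ratios is large: on the common scale, the day 6 ratio was 9.40 in Tajfun (95% counting interval 2.97 to 47.7) and 50.1 in Owacja (16.9 to 245), and the day 10 ratio was 20.8 (6.86 to 103) and 83.7 (28.4 to 408). Tested with limma across 19707 genes with Benjamini-Hochberg adjustment, the rise of MAPKKK passed an adjusted p of 0.05 in Tajfun on day 6 (log2 change 3.89 ± 1.16, SE, adjusted p = 0.0141) and day 10 (4.99 ± 1.13, adjusted p = 0.00149). It also passed in Owacja on day 6 (5.76 ± 0.99, adjusted p = 0.000233) and day 10 (6.50 ± 0.99, adjusted p = 4.01e-05). Fitted changes from groups with libraries at 0 depend on the small count that the method adds, so they are given here for the direction and the test. The rise of MAPKKK in Tajfun on day 6 was the least secure, since it lost the call without either of the day 0 libraries at 0 (adjusted p = 0.0669 and 0.0597) and in a fit of the groups of days 0 and 6 alone (adjusted p = 0.0525, the highest of 5 other settings that began at 0.00240).

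PLC rose to day 6 and then declined. In Tajfun it had 546, 367 and 456 normalized reads on day 6 and 224, 294 and 305 on day 10. In Owacja it had 1026, 954 and 1051 normalized reads on day 6 and 375, 434 and 340.4 on day 10. In both cultivars the libraries of the 3 days did not overlap at all: day 6 was highest, day 10 lay between and day 0 was lowest. The authors' group means of PLC were 11.6 times those of day 0 on day 6 and 6.87 times on day 10 in Tajfun, against 24.4 and 9.07 times in Owacja. All 4 rises passed the limma test: log2 changes of 3.46 ± 0.33 (SE, adjusted p = 6.13e-07) and 2.73 ± 0.34 (adjusted p = 4.71e-06) in Tajfun, and of 4.58 ± 0.33 (adjusted p = 2.95e-08) and 3.20 ± 0.34 (adjusted p = 9.68e-07) in Owacja.

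Both of the 2 genes were thus called higher than on day 0 in Tajfun on day 6, where 16.7% of all genes tested were, and on day 10, where 23.2% were. The same held in Owacja, where 17.2% of all genes tested were called higher on day 6 and 25.5% on day 10. With libraries scaled by their totals, the genes called higher on day 6 went from 3296 to 5837 in Tajfun and from 3391 to 6335 in Owacja, and both genes stayed called. By size, with 10 reads added to both means, PLC stood higher than 98.7% of genes in Tajfun and 99.4% in Owacja on day 6. MAPKKK stood higher than 92.8% and 98.9%, respectively.

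The course from day 6 to day 10 differed between the genes. PLC fell in Owacja by 1.38 on the log2 scale (SE 0.18, limma adjusted p = 3.29e-05) and in Tajfun by 0.72 (SE 0.19, adjusted p = 0.0127). MAPKKK did not pass the test in either cultivar, with log2 changes of 0.74 ± 0.28 in Owacja (95% interval 0.14 to 1.33, adjusted p = 0.0590) and 1.10 ± 0.53 in Tajfun (-0.01 to 2.21, adjusted p = 0.142). Thus 1 of the 2 genes was called lower on day 10 than on day 6 in each cultivar, against 13.0% of all genes tested in Tajfun and 14.1% in Owacja. The call for PLC in Tajfun was lost without the highest library of day 6 (adjusted p = 0.0618), without the lowest of day 10 (0.0580), and in fits over all 35 libraries (0.0759) or over those groups alone (0.0825), and 6 other settings gave 0.00935 to 0.0825.

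In the pair for which the genes had not been selected, the drought-sensitive cultivar had more of both transcripts. On day 6 the Owacja libraries held 110.2 to 130.3 normalized reads of MAPKKK and those of Tajfun 11.9 to 25.7, and every Owacja library was above every Tajfun library. The authors' means for this day were 138 in Owacja and 23.7 in Tajfun, a ratio of 5.80. On day 10 the means of MAPKKK were 209 and 47.2, a ratio of 4.44, again with no overlap between libraries. In the limma fit the log2 difference of Tajfun from Owacja was -2.59 on day 6 (SE 0.47, adjusted p = 0.00218) and -2.23 on day 10 (SE 0.37, adjusted p = 0.000428).

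PLC differed in the same direction, by less. On day 6 the authors' means were 1159.6 in Owacja and 519 in Tajfun, a ratio of 2.23, and the libraries of Owacja (954 to 1051 normalized reads) lay well above those of Tajfun (367 to 546). The log2 difference was -1.17 (SE 0.17, limma adjusted p = 0.000360). On day 10 the means were 394 and 282, a ratio of 1.40. The libraries did not overlap, from 340.4 to 434 in Owacja and from 224 to 305 in Tajfun, but the difference did not pass the test at the adjusted p of 0.05 (log2 difference -0.51, 95% interval -0.93 to -0.09, adjusted p = 0.0703, unadjusted p = 0.0206).

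Hence both of the 2 genes were called lower in Tajfun than in Owacja on day 6, where 4.63% of all genes tested were called lower. On day 10 this held for 1 of the 2, MAPKKK, against 14.7% of all genes. By the ratio of means with 10 reads added, 1.14% of genes lay below MAPKKK and 4.59% below PLC on day 6, and 2.92% and 25.7% on day 10. In 18 fits that each left out 1 library, the differences of MAPKKK on both days and of PLC on day 6 kept their calls.

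**Figure D2:**
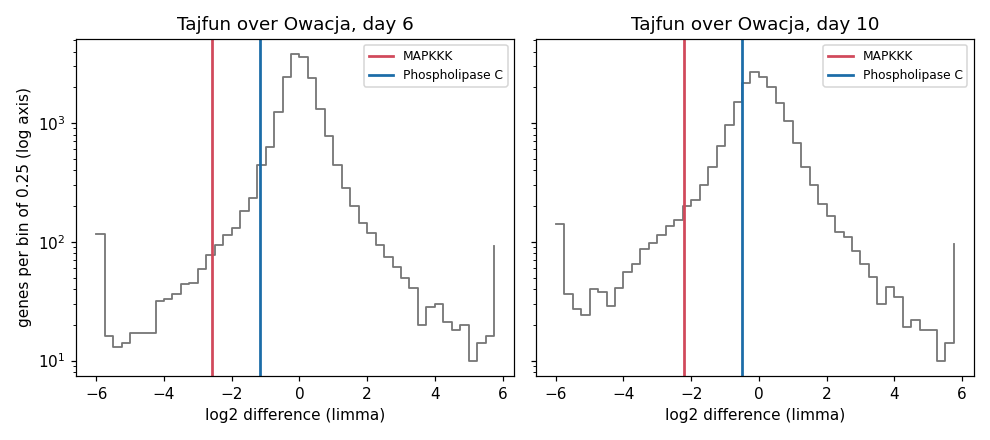
Log2 difference of Tajfun from Owacja in the limma fit on the x axes for all 19707 genes tested, with the number of genes per bin of 0.25 on a log y axis, on day 6 (left) and day 10 (right). Genes beyond 6 in either direction are in the outermost bins, and vertical lines mark MAPKKK at -2.59 and -2.23 and phospholipase C at -1.17 and -0.51, all left of 0.

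Whether the drought response itself differed between Tajfun and Owacja was tested as the difference of both log2 changes from day 0. For PLC the response of Tajfun minus that of Owacja was -1.13 on day 6 (95% interval -2.11 to -0.14, limma adjusted p = 0.402, unadjusted p = 0.0275) and -0.46 on day 10 (-1.47 to 0.54, adjusted p = 0.643). For MAPKKK it was -1.87 on day 6 (-5.09 to 1.35, adjusted p = 0.707) and -1.51 on day 10 (-4.67 to 1.66, adjusted p = 0.631). Neither of the 2 genes was called on either day, and 0.167% of all genes tested were called on day 6 and 3.83% on day 10. Leaving out 1 library at a time moved these calls from 33 to between 9 and 72 genes on day 6 and from 754 to between 388 and 1611 on day 10, and the MAPKKK value of day 10 to between -2.14 and -0.28, with 0 calls for either gene. The intervals of MAPKKK, which had few reads on day 0, were wide, and with limma-trend on log2(normalized reads + 10) its day 10 value was -1.96 with an adjusted p of 0.0210, within a range of 0.0210 to 0.742 over 4 other settings.

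RAB18 (PGSC0003DMG400003531), a dehydrin gene induced by abscisic acid and water loss, was read in each library as a measure beside both genes. Its normalized reads on day 6 ran from 3608 to 5258 in Tajfun and from 2146 to 6159 in Owacja, overlapping between the cultivars (log2 difference of Tajfun from Owacja 0.41 ± 0.30, SE, limma adjusted p = 0.444). On day 10 they ran from 2861 to 3880 in Tajfun and from 1344 to 1739 in Owacja, with Tajfun higher (1.12 ± 0.30, adjusted p = 0.0112), the direction opposite to that of MAPKKK. Counted within each library, there were 3.30 to 6.45 reads of MAPKKK per 1000 reads of RAB18 in Tajfun on day 6 and 21.2 to 55.6 in Owacja, and 9.58 to 18.2 and 118 to 142 on day 10. For PLC these values were 102 to 118 and 167 to 490 on day 6, and 57.8 to 103 and 196 to 285 on day 10. None of these ranges overlapped between Tajfun and Owacja, and those of day 10 also carry the higher RAB18 of Tajfun. In Gwiazda and Oberon the ranges of MAPKKK on day 6 overlapped, at 42.3 to 164 and 37.5 to 58.7. Those of MAPKKK on day 10 and of PLC on both drought days did not. In bulk leaf RNA, fewer cells that express a gene and less RNA per cell cannot be told apart.

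**Figure D3:**
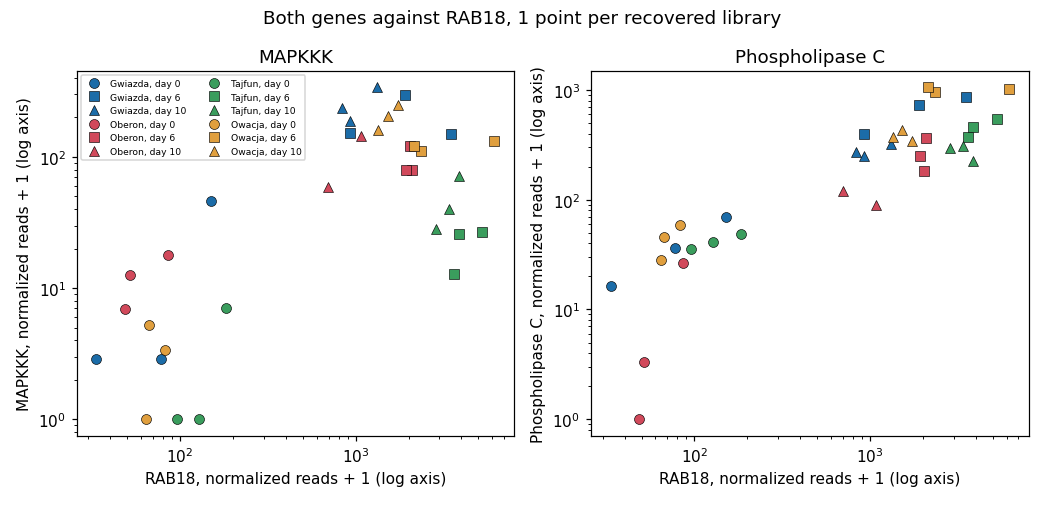
Normalized reads + 1 of MAPKKK (left) and phospholipase C (right) on the y axes against those of RAB18 on the x axes, all on log scales, with 1 point per recovered library, colours for cultivars and symbols for days. The drought libraries of Tajfun lie below those of Owacja for MAPKKK, with 11.9 to 70.6 against 110.2 to 247 normalized reads. For phospholipase C the day 6 libraries of Tajfun, from 367 to 546, overlap the day 10 libraries of Owacja, from 340.4 to 434, and no drought library of Owacja falls within the RAB18 range of those of Tajfun, 2861 to 5258.

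In Gwiazda and Oberon, on which the genes were chosen, the order was the reverse of that in Tajfun and Owacja. MAPKKK had 297, 148 and 152 normalized reads in Gwiazda on day 6 and 78.0, 79.0 and 119.8 in Oberon. On day 10 it had 237, 338 and 187 in Gwiazda and 58.1 and 144 in the 2 libraries of Oberon. PLC had 731, 855 and 397 normalized reads in Gwiazda on day 6 and 365, 247 and 181 in Oberon. On day 10 it had 271, 320.3 and 251 in Gwiazda and 120.2 and 88.4 in Oberon. On both days every Gwiazda library lay above every Oberon library for both genes, and the ratios of the authors' means were 2.16 and 2.52 for MAPKKK and 2.503 and 2.68 for PLC on days 6 and 10. Both genes were thus among the 11.1% of genes at least 2-fold higher by group means in Gwiazda than in Oberon on day 6, and the 7.88% on day 10. Their selection required a difference between these cultivars under drought. The gap between the lowest Gwiazda and the highest Oberon library was narrow for PLC on day 6, 397 against 365, and for MAPKKK on day 6, 148 against 119.8.

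**Figure D4:**
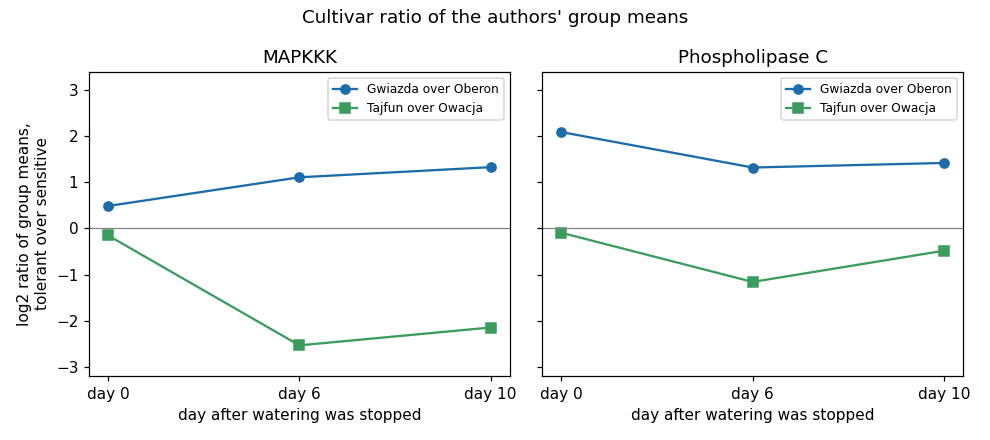
Log2 ratio of the authors' group means, drought-tolerant over drought-sensitive cultivar, on the y axis for each day on the x axis, for MAPKKK (left) and phospholipase C (right). Points above 0 are higher in the drought-tolerant cultivar. Gwiazda over Oberon ran from 0.49 to 1.33 for MAPKKK and from 1.32 to 2.09 for phospholipase C, whereas Tajfun over Owacja was below 0 for both genes on all 3 days, by -2.54 for MAPKKK on day 6.

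The day 0 levels in this pair rested on few reads and on single libraries. The Gwiazda libraries of day 0 had 1.87, 1.90 and 44.9 normalized reads of MAPKKK, so 1 library carried almost the whole level of the group. The same library was the highest of the group in PLC (68.4, against 35.5 and 15.2) and in RAB18 (149.6, against 76.6 and 32.4). It was also the highest in cyclophilin, the RT-PCR reference of the study (25090, against 19798 and 10216). The Oberon libraries of day 0 had 5.95, 17.0 and 11.6 normalized reads of MAPKKK and 0, 25.4 and 2.31 of PLC. On day 0 the authors' means gave a ratio of Gwiazda to Oberon of 1.40 for MAPKKK and 4.27 for PLC, and the libraries of both cultivars overlapped for both genes. The ratio of PLC on day 0 was thus above those on days 6 and 10, so its log2 ratio changed by -0.77 and -0.67 from day 0. Once 10 reads were added to each mean, neither change was larger in size than the -0.06 of day 6. Without the Oberon library that carried most of its PLC reads on day 0, the log2 ratio of Gwiazda to Oberon on that day went from 2.09 to 5.10. For MAPKKK the log2 ratio changed by 0.62 and 0.84, but without the high library of day 0 the ratio of Gwiazda to Oberon on that day turned from 0.49 to -2.61 on the log2 scale.

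Both genes rose in Gwiazda and in Oberon as well. By the authors' means the ratio of MAPKKK to day 0 in Gwiazda was 12.5 on day 6 and 15.6 on day 10, and in Oberon 8.22 and 9.07. Without the high library of day 0, the log2 ratios in Gwiazda went from 3.64 to 6.72 and from 3.96 to 7.07, against a mean of 1.89 normalized reads in the other libraries. The ratio of PLC was 17.0 and 7.07 in Gwiazda and 29.1 and 11.6 in Oberon. In Oberon 1 of the 3 day 0 libraries carried most of the PLC level, and without it the log2 ratios went from 4.86 to 7.84 and from 3.54 to 6.49. With 10 reads added to each mean they were 3.81 and 2.57, near the 3.78 and 2.55 of Gwiazda. Both genes were at least 2-fold higher than on day 0 in all 4 comparisons, as were 11.5% and 18.4% of genes in Gwiazda and 12.1% and 19.1% in Oberon on days 6 and 10. From day 6 to day 10 the mean of PLC went to 0.425 of its level in Gwiazda and 0.398 in Oberon, with no overlap between libraries, while that of MAPKKK stood at 1.27 and 1.11 times, with overlapping libraries.

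Placed on the common scale, the 12 levels of MAPKKK ran from Gwiazda on day 10 (254 ± 76.8, SD, n = 3), Owacja on day 10 (203 ± 44.5) and Gwiazda on day 6 (199 ± 85.2) through Owacja on day 6 (120.0 ± 10.1) and Oberon on days 10 (101 ± 60.6, n = 2) and 6 (92.3 ± 23.9) to Tajfun on days 10 (45.7 ± 22.3) and 6 (20.9 ± 7.77). Gwiazda on day 0 (16.2 ± 24.8), Oberon on day 0 (11.5 ± 5.50), Owacja on day 0 (2.21 ± 2.13) and Tajfun on day 0 (2.001 ± 3.47) followed. Within the first 3 levels neighbours differed by less than their SD, as did the next 3, the levels of Tajfun on day 6, Gwiazda on day 0 and Oberon on day 0, and the day 0 levels of Owacja and Tajfun.

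For PLC the order was Owacja on day 6 (1010.1 ± 50.6, SD, n = 3), Gwiazda on day 6 (661 ± 237), Tajfun on day 6 (456 ± 89.1), Owacja on day 10 (383 ± 47.5), Gwiazda on day 10 (281 ± 35.5), Tajfun on day 10 (275 ± 44.1), Oberon on day 6 (264 ± 93.2) and Oberon on day 10 (104 ± 22.5, n = 2). The day 0 levels were 43.1 ± 15.003 in Owacja, 40.8 ± 6.95 in Tajfun, 39.7 ± 26.8 in Gwiazda and 9.25 ± 14.1 in Oberon. Neighbours from Gwiazda on day 10 to Oberon on day 6 and the day 0 levels of Owacja, Tajfun and Gwiazda differed by less than their SD. By group mean, Oberon was the lowest of the 4 cultivars in PLC on each day and Tajfun in MAPKKK, though their libraries overlapped those of another cultivar on day 0, and for MAPKKK also on day 10, where a Tajfun library at 70.6 lay above an Oberon library at 58.1.

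The patterns of both genes were compared with those of 16612 genes over 14 log2 ratios, the 8 of a drought day to day 0 and the 6 between cultivars, with 10 reads added to each mean. The ratios share groups and are not independent, and these correlations are a description. The correlation of MAPKKK with PLC was 0.89 (Pearson r), and PLC ranked 194 among the genes by likeness to MAPKKK. The gene most like MAPKKK was PGSC0003DMG400047155 (r = 0.98) and that most like PLC was PGSC0003DMG400011538 (r = 0.99), and no name was given for either in the sources used here. The gene named for MAPKKK depended on the pseudocount: with 1 read added, another gene came first (r = 0.98) and PLC ranked 444, whereas that named for PLC stayed first. PGSC0003DMG400047155 had 413 ± 51.2 normalized reads in Owacja on day 10 (mean ± SD, n = 3), 62.1 ± 17.3 in Tajfun, 370.4 ± 102 in Gwiazda and 137 ± 48.0 in Oberon (n = 2). PGSC0003DMG400011538 had 11197 ± 90.7 in Owacja on day 6, 7426 ± 1391 in Tajfun, 7648 ± 2546 in Gwiazda and 4097 ± 1091 in Oberon.

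**Figure D5:**
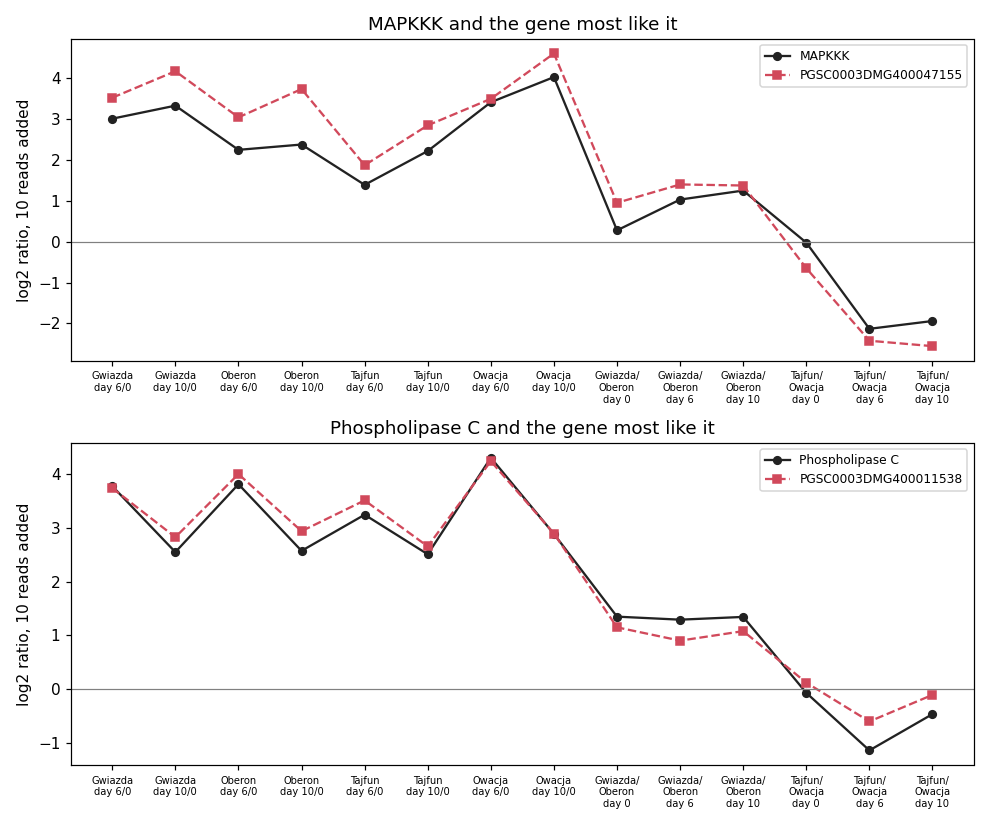
Log2 ratios with 10 reads added on the y axes over the 14 comparisons on the x axes for MAPKKK (top) and phospholipase C (bottom), black, and for the gene most like each, red. Both MAPKKK and the gene most like it, with r = 0.98, lie above 0 in Gwiazda over Oberon and below 0 in Tajfun over Owacja on all 3 days. For MAPKKK the value of Tajfun over Owacja on day 0 was only -0.02. That of Gwiazda over Oberon on day 0, 0.28, rested mostly on 1 Gwiazda library. Each red gene was chosen by these same 14 ratios, so its likeness follows from the choice.

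The 4 other genes that the authors selected as higher in Gwiazda than in Oberon were an ATP binding protein gene, CAP160, an alcohol dehydrogenase gene and an aminoadipic semialdehyde synthase gene. Between Tajfun and Owacja, 0 of the 4 were called higher and 1 lower on day 6 (median log2 difference -0.01, range -1.10 to 0.60), and 3 higher and 0 lower on day 10 (median 1.48, range -0.29 to 1.78), beside a median of 0.00 on day 6 and -0.03 on day 10 over all 19707 genes tested. Of all genes tested, 4.61% were called higher in Tajfun on day 6 and 11.0% on day 10. The gene called lower on day 6 was the aminoadipic semialdehyde synthase gene, an enzyme of lysine breakdown (-1.10 ± 0.30, SE, limma adjusted p = 0.0254), and none of the 4 was called lower on both days, as MAPKKK was. CAP160 was selected by the authors in this pair as well, so its values here are no separate evidence. Of 137 genes tested that, like both genes described here, had Gwiazda means at least 2-fold above those of Oberon on both drought days and at least 2-fold above day 0 in Gwiazda, 12 were called lower in Tajfun than in Owacja on both drought days, MAPKKK among them, and 8 were called higher. This is 8.76% called lower on both days, against 3.09% of all genes tested. The 8 called higher on both days were also a larger share than the 2.96% of all genes, so the list exceeded all genes in both directions. In all, 212 genes had this pattern of means, and those beyond the 137 were not in the test. By day, 24 of the 137 were called lower and 11 higher on day 6, and 25 lower and 27 higher on day 10. Of all genes tested, 4.63% were called lower and 4.61% higher on day 6, and 14.7% and 11.0% on day 10. No test was made of these shares.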

How the data were processed

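The authors mapped strand-specific paired reads onto the potato PGSC pseudomolecules with TopHat2, estimated reads per transcript with Flux Capacitor, summed isoforms and normalized each pair of groups with DESeq. The deposited signal values are the authors' group means of normalized reads. The authors' fold changes, log2 fold changes, p-values and adjusted p-values were not used. Members and lists were chosen with earlier results of these data known. Reads per library were solved from the 3 means of a group, a step chosen after the data were seen and tested on simulated data, scaled by median-of-ratios factors and tested with limma 3.58.1 (voom weights, 6 groups, 11 contrasts, R 4.3.3) over genes with a mean of at least 10 reads in the 18 Tajfun and Owacja libraries, which replaced a plan without tests. Both genes passed this minimum. Counting intervals are exact binomial intervals on read pairs, cover counting error only and take each recovered pair as counted once. Shares of genes at least 2-fold higher were taken among genes with a mean of at least 10 reads in either group, and likeness among genes with a mean of at least 100 reads in a group. Genes named are both members, RAB18, cyclophilin, the gene most like each member and the 4 other selected genes. Paralogues may share reads. Of the reference identifiers 0 matched those of the tables, so no coordinates, proteins or leaf markers are given. Alternatives covered pseudocounts, scaling, tables, filters, the fit and each library left out.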

Additional observations from a re-analysis of the deposited data

Results flagged for a closer look

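The order of the cultivars in both genes ran in opposite directions in the 2 pairs on the drought days, with every library of one cultivar on the same side of every library of the other. For MAPKKK the log2 ratio of the authors' means, drought-tolerant over drought-sensitive, was 1.11 in Gwiazda over Oberon and -2.54 in Tajfun over Owacja on day 6, and 1.33 and -2.15 on day 10. For PLC it was 1.32 and -1.16 on day 6, and 1.42 and -0.48 on day 10. The difference of PLC between Tajfun and Owacja on day 10 did not pass the limma test (adjusted p = 0.0703). The difference between the pairs was not tested, because the genes were chosen on the ratio of Gwiazda to Oberon. A difference between Gwiazda and Oberon under drought was required by that choice.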

How the results depend on the processing

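No paired analysis was possible because the recovered libraries carry no replicate number. With 10 reads added, the log2 ratio to day 0 of MAPKKK moved to 2.25 in Oberon on day 6, to 1.39 and 2.22 in Tajfun and to 3.41 and 4.027 in Owacja on days 6 and 10, and that of PLC in Tajfun to 3.25 and 2.51. Dividing columns by their sums, which shifted all drought ratios in Tajfun and Owacja by 0.28 to 0.39, gave PLC 3.85 and 3.09 in Tajfun and 4.99 in Owacja on day 6. In the test, the fit of both groups alone gave MAPKKK 3.93 (adjusted p = 0.0525) in Tajfun on day 6, the fit over all libraries gave PLC -0.73 and that of both groups alone -0.70 for day 10 over day 6 in Tajfun, and limma-trend gave MAPKKK -1.96 for the difference of responses on day 10. PLC on day 0, Tajfun over Owacja, turned to 0.029 with library totals. Leaving out single libraries gave log2 ranges of 3.25 to 5.11 for MAPKKK in Tajfun on day 6 over day 0, -0.87 to -0.59 for PLC in Tajfun and 0.60 to 0.91 for MAPKKK in Owacja on day 10 over day 6, where the call was gained without 1 library of Tajfun or 1 of Owacja on day 10, and -0.30 to 0.17 for PLC on day 0. Without the high Gwiazda library, MAPKKK took log2 ratios of 6.72, 7.07 and -2.61, and without the Oberon day 0 library highest in PLC, PLC took 7.84 and 6.49 to day 0. Leaving out either library gave 1.45 to 5.10 for PLC in Gwiazda over Oberon on day 0. With a minimum of 100 reads MAPKKK could not be tested. Over all genes, limma-trend called 129 genes for the difference of responses on day 6 and 1259 on day 10 in place of 33 and 754, library totals moved the genes called lower in Owacja on day 6 from 4244 to 2720, and the fit of both groups alone moved those called lower in Tajfun on day 10 than on day 6 from 2571 to 1458. Leaving out single libraries moved the genes called lower in Tajfun than in Owacja on day 6 from 913 to as few as 527. A 4-fold minimum left 3.07% to 10.1% of genes higher by group means. The counts behind MAPKKK on day 0 limit every ratio to that day.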
